A study of Caenorhabditis elegans with 12 samples.

Results

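Heterochronic genes set the order of larval stages in Caenorhabditis elegans, and 8 of them were followed here across 4 strains: lin-14, lin-28, hbl-1, lin-46, lin-41, lin-29, mab-10 and lin-42. Members were all probe sets that the platform annotation assigns to 1 of these symbols alone, which gave 14 of the 22625 probe sets on the array and covered 8 of 17118 genes with such a probe set. Tested groups were worms labelled crh-1 null (strain crh-1 (nn3315), lacking the transcription factor CREB), tax-6 null (RB1667, tax-6(ok2065), lacking the catalytic subunit of calcineurin) and aak-2 o/e (AGD383, N2 animals carrying uthIs202). That transgene joins residues 1 to 321 of AAK-2, a kinase subunit of AMPK, to Tomato under the aak-2c promoter, with the unc-54 3′ UTR and a rol-6 marker. WT was N2. All 12 samples, 3 per strain, were pools of 3000 whole worms collected as L4 larvae, the last larval stage, at times set to allow for unequal growth between strains, per the labels' protocols. Each mutant strain was a single allele and the transgenic strain a single line. Since the comparison of pools depends on how well they match in stage, the stage-ordering genes were read one by one.

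In worms, temporal fate is controlled by a chain of regulators that are switched off or on in turn. The transcription factor LIN-14 and the RNA-binding protein LIN-28 promote early larval fates and are shut down by the microRNA lin-4, and the zinc-finger factor HBL-1 acts after them until let-7 family microRNAs repress it. At the end of larval life let-7 represses lin-41, whose TRIM-NHL protein holds down lin-29 and mab-10. LIN-29, with its cofactor MAB-10, then drives the switch of the epidermis to adult fate. LIN-42, related to the clock protein Period, rises and falls with each moult.

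Values are the deposited log2 values, given for replicates 1, 2 and 3 in that order. Differences are on the log2 scale as limma estimates ± SE with 3 arrays against 3, and a difference was called at an adjusted p below 0.05 over all 13396 probe sets tested. A probe set was tested when it reached a log2 value of 4 on at least 3 arrays. Between 57.2% and 58.1% of all probe sets reached this value on each array, and precision is limited by the number of arrays. Replicate arrays correlated across probe sets at 0.996 to 0.998 in crh-1 null, aak-2 o/e and WT, and at 0.990 to 0.997 in tax-6 null, whose replicate 1 was the least like its group. The labels of the strains could be checked only in part. At its detected probe set crh-1 rose in crh-1 null, with 8.43 to 8.81 in crh-1 null and 7.06 to 7.24 in WT (log2 difference 1.46 ± 0.15, adjusted p = 1.6e-05). The probe set of tax-6 was too dim for the filter, at 2.98 to 3.43 in tax-6 null and 3.55 to 4.02 in WT. In aak-2 o/e, aak-2 differed from WT by -0.41 ± 0.19 (adjusted p = 0.126) and -0.47 ± 0.12 (adjusted p = 0.0129) by its pair of probe sets. One label field of these 3 samples names the strain as an aak-2 null. The position of these probes relative to the deletions and the transgene was not analysed here. Each strain name below stands for the arrays carrying that label.

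Of the 14 probe sets, 6 were tested, 1 each for lin-28, hbl-1, lin-46, lin-41, lin-29 and lin-42. All 6 differed among the 4 strains in the F test, against 62.9% of all probe sets tested. In tax-6 null all 6 were called, 4 higher and 2 lower than WT, where 43.8% of probe sets were called (17.9% higher and 25.9% lower). In crh-1 null 3 were called, 2 higher and 1 lower, where 19.8% were called (9.53% higher and 10.2% lower). In aak-2 o/e 2 were called, both lower, where 31.9% were called (13.6% higher and 18.3% lower). Arrays of the altered strain and of WT did not overlap for 6, 3 and 3 of the 6 probe sets in tax-6 null, crh-1 null and aak-2 o/e, where 53.6%, 41.8% and 50.6% of all probe sets did not. The median difference of the 6 was 0.52 in tax-6 null, 0.09 in crh-1 null and -0.11 in aak-2 o/e, beside -0.09, -0.01 and -0.14 over all probe sets. The members thus moved in both directions, and only lin-42 was called in all 3 strains. These counts cover the probe sets that passed the filter, and lin-46 passed it only through the strains in which it was high. Among the 5 others, 5 were called in tax-6 null, 2 in crh-1 null and 2 in aak-2 o/e. Without tax-6 null replicate 1, 5 of 6 were called in that strain, lin-29 being the one lost. The 3 comparisons share the WT arrays. The span from the lowest to the highest strain mean lay at the 43.7th percentile of all probe sets tested for lin-28, the 53.9th for lin-41, the 61.1st for hbl-1, the 62.6th for lin-42 and the 67.1st for lin-29.

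**Figure D1:**
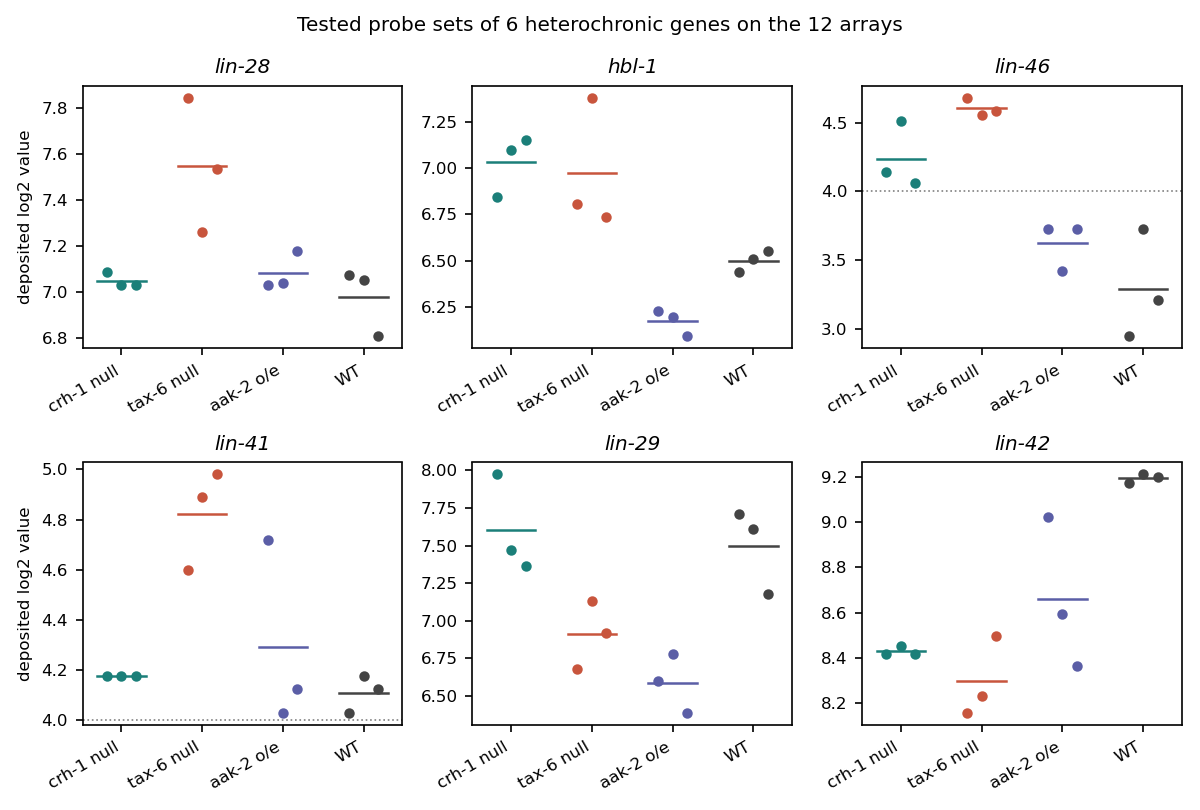
Deposited log2 value (vertical axis, a separate scale in each panel) of the 6 tested probe sets on the 12 arrays. Points are arrays, bars are strain means of 3 arrays and the dotted line marks the filter value of 4; lin-42 was lower than WT on all 9 arrays of the altered strains, while lin-46 was below 4 on all aak-2 o/e and WT arrays.

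lin-42, the Period-related gene whose RNA oscillates with the moulting cycle, was lower in all 3 altered strains. It read 8.16, 8.23 and 8.50 in tax-6 null, 8.42, 8.45 and 8.42 in crh-1 null, 9.02, 8.59 and 8.37 in aak-2 o/e and 9.17, 9.21 and 9.20 in WT. These are the values of 1 of its 2 probe sets, the other lying at 2.11 on all 12 arrays. Every array of the altered strains lay below the lowest WT array, and the WT and crh-1 null arrays were each tightly grouped while aak-2 o/e was spread. The difference from WT was -0.76 ± 0.15 in crh-1 null (adjusted p = 0.00319), -0.90 ± 0.15 in tax-6 null (adjusted p = 0.000526) and -0.53 ± 0.15 in aak-2 o/e (adjusted p = 0.0188), that is 1.7-fold, 1.86-fold and 1.45-fold lower. From the highest, the strains ranked WT, aak-2 o/e, crh-1 null and tax-6 null. Below WT no neighbours in that order differed (adjusted p = 0.246 for crh-1 null against aak-2 o/e and 0.53 for crh-1 null against tax-6 null). The fall in aak-2 o/e is the least secure. It was lost with only the 2 strains in the fit (adjusted p = 0.0526) and without WT replicate 2 or 3 or aak-2 o/e replicate 2 or 3 (adjusted p = 0.0516 to 0.0726). In tax-6 null against aak-2 o/e the difference of -0.36 ± 0.15 did not pass (adjusted p = 0.0677), although it did with arrays centred on their medians (adjusted p = 0.0404), without tax-6 null replicate 3 (0.0406) and without aak-2 o/e replicate 3 (0.0153). In RNA from whole worms, fewer cells of a type and less RNA per cell cannot be told apart.

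Genes of moulting, the shedding of the cuticle between stages, were set beside lin-42. Of 23 measured, 15 fell and 3 rose in crh-1 null, 17 fell and 1 rose in tax-6 null, and 11 fell and 0 rose in aak-2 o/e. Of all probe sets tested, 10.2%, 25.9% and 18.3% fell in these strains. The mean log2 level of the moulting genes ranged from 8.76 to 8.98 in crh-1 null, 8.91 to 9.07 in tax-6 null, 9.14 to 9.34 in aak-2 o/e, against 9.68 to 9.76 in WT. As for lin-42, WT was highest. On this list aak-2 o/e came next, and the ranges of crh-1 null and tax-6 null overlapped. Among the altered strains lin-42 was not called in any direct comparison with all arrays in the fit. The metalloprotease gene nas-37, needed to shed the old cuticle, differed from WT by -1.66 ± 0.16 in tax-6 null, -1.48 ± 0.16 in crh-1 null and -1.38 ± 0.16 in aak-2 o/e, all called. Against this, the fibrillin-like gene fbn-1 rose by 2.53 ± 0.18 in crh-1 null and 1.32 ± 0.18 in tax-6 null. What part the moulting phase of the pools has in the level of lin-42 was not tested.

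**Figure D2:**
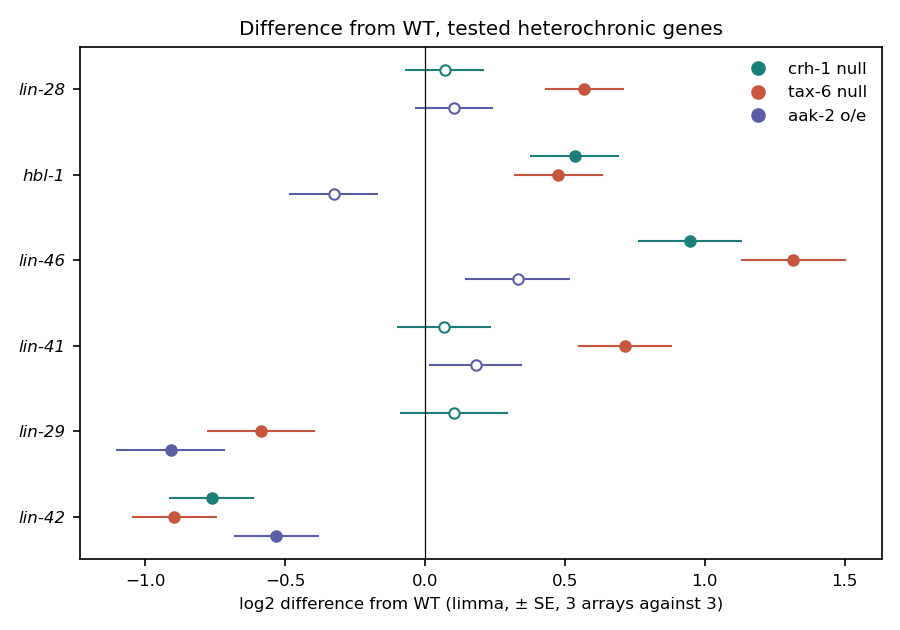
Log2 difference from WT (horizontal axis) of the tested heterochronic genes, 3 arrays against 3, with bars for ± SE from limma. Filled points passed an adjusted p of 0.05 and open points did not; lin-42 is left of 0 in all strains, lin-46 is drawn from WT and aak-2 o/e values below 4, so its position gives no size, and hbl-1 lies right of 0 in crh-1 null and tax-6 null.

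Among genes of early larval fate, lin-14 gave no measurable signal. Its only probe set lay at the lowest value of the table, 2.11, on all 12 arrays, so nothing can be said of its level in any strain. lin-28, whose protein binds RNA and blocks the maturation of let-7, had 3 probe sets, of which 1 was detected. Of the others, one lay between 2.50 and 3.06 and one at 2.11 on 11 of the 12 arrays. The detected probe set read 7.84, 7.26 and 7.54 in tax-6 null, 7.09, 7.03 and 7.03 in crh-1 null, 7.03, 7.04 and 7.18 in aak-2 o/e and 7.08, 7.05 and 6.81 in WT. All 3 tax-6 null arrays were above every other array, and the remaining strains overlapped. The identical value of 7.03 stood on 3 arrays, crh-1 null replicates 2 and 3 and aak-2 o/e replicate 1. lin-28 rose by 0.57 ± 0.14 in tax-6 null (adjusted p = 0.00603), a 1.48-fold difference. In crh-1 null it differed from WT by 0.07 (95% interval -0.24 to 0.38, adjusted p = 0.826) and in aak-2 o/e by 0.10 (95% interval -0.20 to 0.41, adjusted p = 0.609). It was also higher in tax-6 null than in aak-2 o/e (0.47 ± 0.14, adjusted p = 0.0161) and lower in crh-1 null than in tax-6 null (-0.50 ± 0.14, adjusted p = 0.015). Both of these direct calls were lost with only the 2 strains in the fit (adjusted p = 0.0674 and 0.0553).

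hbl-1 encodes a zinc-finger factor related to Hunchback that keeps early fates until let-7 family microRNAs act. It read 6.81, 7.38 and 6.73 in tax-6 null, 6.84, 7.10 and 7.16 in crh-1 null, 6.23, 6.20 and 6.09 in aak-2 o/e and 6.44, 6.51 and 6.55 in WT. A second hbl-1 probe set stayed at 2.11 on all 12 arrays. At the brighter one, all arrays of crh-1 null and tax-6 null lay above WT and all of aak-2 o/e lay below it. hbl-1 rose by 0.53 ± 0.16 in crh-1 null (adjusted p = 0.0332) and by 0.48 ± 0.16 in tax-6 null (adjusted p = 0.029), 1.45-fold and 1.39-fold. In aak-2 o/e the difference of -0.33 ± 0.16 did not pass (adjusted p = 0.137), except with only these strains in the fit (adjusted p = 0.0272) or without tax-6 null replicate 2 (adjusted p = 0.0394). hbl-1 was higher by 0.86 ± 0.16 in crh-1 null than in aak-2 o/e (adjusted p = 0.000778) and by 0.80 ± 0.16 in tax-6 null than in aak-2 o/e (adjusted p = 0.00118), and both held under every alternative run. The rises over WT did not hold under all of them. That of crh-1 null was lost when dim probe sets were kept (adjusted p = 0.0812) and without any WT replicate or crh-1 null replicate 2 or 3 (adjusted p = 0.0691 to 0.128). That of tax-6 null was lost without the filter (adjusted p = 0.0655), with only the 2 strains in the fit (0.0882), without any WT replicate (0.0546 to 0.0836) and without tax-6 null replicate 2, where it was 0.27 (adjusted p = 0.0955). Between crh-1 null and tax-6 null the difference was 0.06 (95% interval -0.29 to 0.41, adjusted p = 0.81).

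Neuronal genes were set beside hbl-1. Their levels too were above WT in both mutants and below it in aak-2 o/e. Their mean was highest in tax-6 null, but their median difference in crh-1 null against tax-6 null was -0.02. In that comparison 1 of 9 was called higher and 3 lower in crh-1 null, where 21.1% and 15.6% of all probe sets were. hbl-1 was not told apart between crh-1 null and tax-6 null (limma, adjusted p = 0.81). The mean log2 level of 9 neuronal markers ranged from 9.30 to 9.37 in crh-1 null, 9.42 to 9.68 in tax-6 null, 8.62 to 8.64 in aak-2 o/e, against 8.94 to 8.99 in WT. Of these, 4 rose in crh-1 null and 6 rose in tax-6 null, where 9.53% and 17.9% of all probe sets tested rose. In aak-2 o/e 3 fell, where 18.3% of all probe sets fell. These counts were 2 in crh-1 null without WT replicate 1 or 2 or crh-1 null replicate 3, 3 in tax-6 null without WT replicate 3, and 1 in aak-2 o/e without WT replicate 3 or aak-2 o/e replicate 2. The synaptic gene ric-4 differed from WT by 0.39 ± 0.11 in tax-6 null, 0.55 ± 0.11 in crh-1 null and -0.66 ± 0.11 in aak-2 o/e. The part of neuronal RNA in the level of hbl-1 was not tested.

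lin-46 encodes a gephyrin-like protein that opposes HBL-1 and acts after LIN-28, which represses its translation. Its brighter probe set read 4.68, 4.56 and 4.59 in tax-6 null, 4.14, 4.51 and 4.06 in crh-1 null, 3.72, 3.42 and 3.72 in aak-2 o/e and 2.94, 3.72 and 3.21 in WT. It passed the filter only through crh-1 null and tax-6 null, since no aak-2 o/e or WT array reached 4. A probe set chosen in this way had to differ, so its calls and adjusted p-values are a description and its fitted differences are not given. Each adjusted p below is that of the fit, which used values below 4, and not a test of the bound beside it. Taking the WT level as 4, lin-46 was at least 1.52-fold higher in tax-6 null (adjusted p = 0.000144) and at least 1.18-fold higher in crh-1 null (adjusted p = 0.00304). Against aak-2 o/e the bounds were the same, with an adjusted p of 0.000896 for tax-6 null and 0.0187 for crh-1 null. The call of crh-1 null against aak-2 o/e was lost without the filter (adjusted p = 0.0541), without crh-1 null replicate 2 (0.0824) and without aak-2 o/e replicate 2 (0.0727). No difference is read between aak-2 o/e and WT, since both lay below 4.

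The second lin-46 probe set was too dim for the filter. It read 4.47, 4.25 and 2.97 in tax-6 null, 2.43, 2.85 and 2.30 in crh-1 null, 2.18, 2.19 and 2.11 in aak-2 o/e and 2.11, 2.18 and 2.19 in WT. The 3 tax-6 null arrays were the highest, with 2 of them above 4, and crh-1 null lay between them and the rest. Its values lie too near the floor for a fold or a test.

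**Figure D3:**
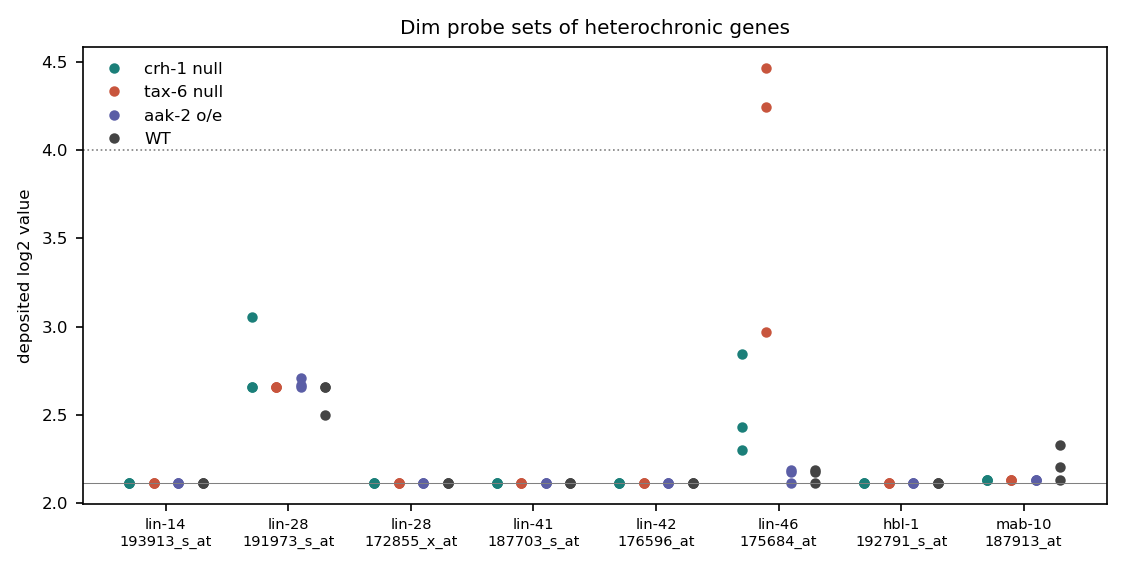
Deposited log2 value (vertical axis) of the 8 probe sets of heterochronic genes that were too dim for the filter, named by gene and probe set on the horizontal axis, with a point per array coloured by strain. The dotted line is the filter value of 4 and the solid line is the lowest value of the table, 2.11; 5 probe sets sit on or next to that line in all strains, and lin-46 alone has arrays above 4, both of tax-6 null.

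Among genes of the change to adult fate, lin-41 encodes the TRIM-NHL protein that let-7 shuts down and that also acts in developing oocytes. Its detected probe set read 4.60, 4.89 and 4.98 in tax-6 null, 4.18, 4.18 and 4.18 in crh-1 null, 4.72, 4.03 and 4.12 in aak-2 o/e and 4.03, 4.18 and 4.12 in WT. The tax-6 null arrays were above all WT and crh-1 null arrays, while aak-2 o/e replicate 1 stood within their range. On 8 of the 12 arrays the value was identical to that of another array, 4.18 on 4 of them. Identical values also occurred at the brighter lin-28 probe set, and their source was not tested. They can make a group look tighter than separate measurements would. lin-41 rose by 0.71 ± 0.17 in tax-6 null (adjusted p = 0.00433) and was lower in crh-1 null than in tax-6 null (-0.65 ± 0.17, adjusted p = 0.00946). These sizes are uncertain and no fold is given, since the values of the other strains lie just above 4 and their SE takes its spread from all 4 strains. It differed from WT by 0.07 in crh-1 null (95% interval -0.30 to 0.43, adjusted p = 0.864) and by 0.18 in aak-2 o/e (95% interval -0.18 to 0.54, adjusted p = 0.441). Its call in tax-6 null against aak-2 o/e (0.53 ± 0.17, adjusted p = 0.0192) was lost with quantile normalization (0.0552), with only the 2 strains in the fit (0.0912) and without tax-6 null replicate 2 or 3 or aak-2 o/e replicate 2 or 3 (0.0538 to 0.0825). The other probe set of lin-41 lay at 2.11 on all 12 arrays.

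Oocyte and eggshell genes were also high in tax-6 null and likewise in aak-2 o/e. Of 16 measured, 0 rose and 8 fell in crh-1 null, 13 rose and 0 fell in tax-6 null, and 12 rose and 0 fell in aak-2 o/e. Of all probe sets tested, 19.8%, 43.8% and 31.9% were called in these strains. The mean log2 level of the oocyte and eggshell genes ranged from 6.73 to 6.80 in crh-1 null, 8.47 to 8.72 in tax-6 null, 8.16 to 8.53 in aak-2 o/e, against 7.29 to 7.58 in WT. The eggshell gene perm-4 differed from WT by 2.61 ± 0.24 in tax-6 null, -2.17 ± 0.24 in crh-1 null and 2.31 ± 0.24 in aak-2 o/e. The part of oocytes in the level of lin-41 was not tested.

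lin-29 encodes the zinc-finger factor that triggers terminal differentiation of the epidermis. It read 6.68, 7.13 and 6.92 in tax-6 null, 7.97, 7.47 and 7.36 in crh-1 null, 6.60, 6.78 and 6.39 in aak-2 o/e and 7.71, 7.61 and 7.18 in WT. No array of tax-6 null or aak-2 o/e reached the lowest WT array, though the nearest tax-6 null and WT arrays were close, while crh-1 null overlapped WT. lin-29 fell by 0.91 ± 0.19 in aak-2 o/e (adjusted p = 0.00379), 1.88-fold, and that call held under every alternative run. In tax-6 null it fell by 0.59 ± 0.19 (adjusted p = 0.0285), 1.5-fold. This call was lost without the filter (adjusted p = 0.0782) and without WT replicate 1 or 2 or tax-6 null replicate 1 or 3 (adjusted p = 0.0614 to 0.107). In crh-1 null the difference was 0.10 (95% interval -0.32 to 0.53, adjusted p = 0.81). lin-29 was 2.02-fold higher in crh-1 null than in aak-2 o/e (1.01 ± 0.19, adjusted p = 0.00107) and 1.61-fold higher in crh-1 null than in tax-6 null (0.69 ± 0.19, adjusted p = 0.0155). Its difference between crh-1 null and tax-6 null was lost without crh-1 null replicate 1 (adjusted p = 0.0712) and, just above the threshold, without tax-6 null replicate 1. Between tax-6 null and the aak-2 o/e arrays the difference was 0.32 (95% interval -0.10 to 0.75, adjusted p = 0.196).

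mab-10, whose protein is an NAB-type cofactor of LIN-29, was not detected. Its probe set lay at 2.13 on 10 arrays and reached 2.33 at most, in WT replicate 3, so neither its level nor a difference could be read.

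The cuticle collagen gene col-19, which LIN-29 is known to activate when the adult cuticle is made, was set beside lin-29. It read 12.31, 11.98 and 12.31 in tax-6 null, 4.34, 4.48 and 3.86 in crh-1 null, 10.31, 9.22 and 10.27 in aak-2 o/e and 4.10, 5.25 and 4.35 in WT. Its arrays fell into separate ranges for aak-2 o/e and tax-6 null, both far above WT, and overlapped between crh-1 null and WT. col-19 rose in the same strains in which lin-29 RNA fell, by 7.63 ± 0.33 in tax-6 null (adjusted p = 9.11e-09) and 5.36 ± 0.33 in aak-2 o/e (adjusted p = 5.34e-07), with no call in crh-1 null (-0.34 ± 0.33, adjusted p = 0.58). Other late cuticle collagens did not follow it, except rol-1 in aak-2 o/e. The blister collagen gene bli-2 fell in all 3 strains, at -1.71 ± 0.15 in tax-6 null, -1.68 ± 0.15 in crh-1 null and -0.93 ± 0.15 in aak-2 o/e. The collagen gene rol-1 fell by 4.30 ± 0.18 in crh-1 null and 0.99 ± 0.18 in tax-6 null. Of the 4 genes on this list, 0 rose and 3 fell in crh-1 null, 1 rose and 3 fell in tax-6 null, and 2 rose and 1 fell in aak-2 o/e. Of all probe sets tested, 19.8%, 43.8% and 31.9% were called in these strains. The second rise in aak-2 o/e, that of rol-1 (0.53 ± 0.18, adjusted p = 0.0419), was lost without the filter, with the replicate block and without each of 8 arrays in turn, all 3 WT replicates among them (adjusted p up to 0.142).

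Germline and yolk readouts of late development separated the same strains differently. Of all probe sets tested, 9.53% rose and 10.2% fell in crh-1 null, 17.9% and 25.9% in tax-6 null, and 13.6% and 18.3% in aak-2 o/e. Of 16 sperm genes, 0 were called in crh-1 null (limma, with 2 at an unadjusted p under 0.05), 6 fell in tax-6 null and 16 rose in aak-2 o/e, with mean log2 levels of 10.29 to 10.57, 10.21 to 10.39 and 12.00 to 12.04 in these strains and 10.56 to 10.64 in WT. Of 5 yolk protein genes, 4 fell in crh-1 null (2 without crh-1 null replicate 3), 1 rose and 1 fell in tax-6 null, and 5 rose in aak-2 o/e. Their mean level was 5.97 to 6.12 in crh-1 null, 7.53 to 9.01 in tax-6 null, 11.02 to 11.61 in aak-2 o/e, against 7.75 to 8.18 in WT. Ranked by mean, the strains did not fall in the same order for lin-42, hbl-1, lin-29 and these lists. Several neighbours in the orders of lin-42, hbl-1 and lin-29 were not told apart (limma). What part a difference in stage has in the levels of the heterochronic genes was not tested.

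**Figure D4:**
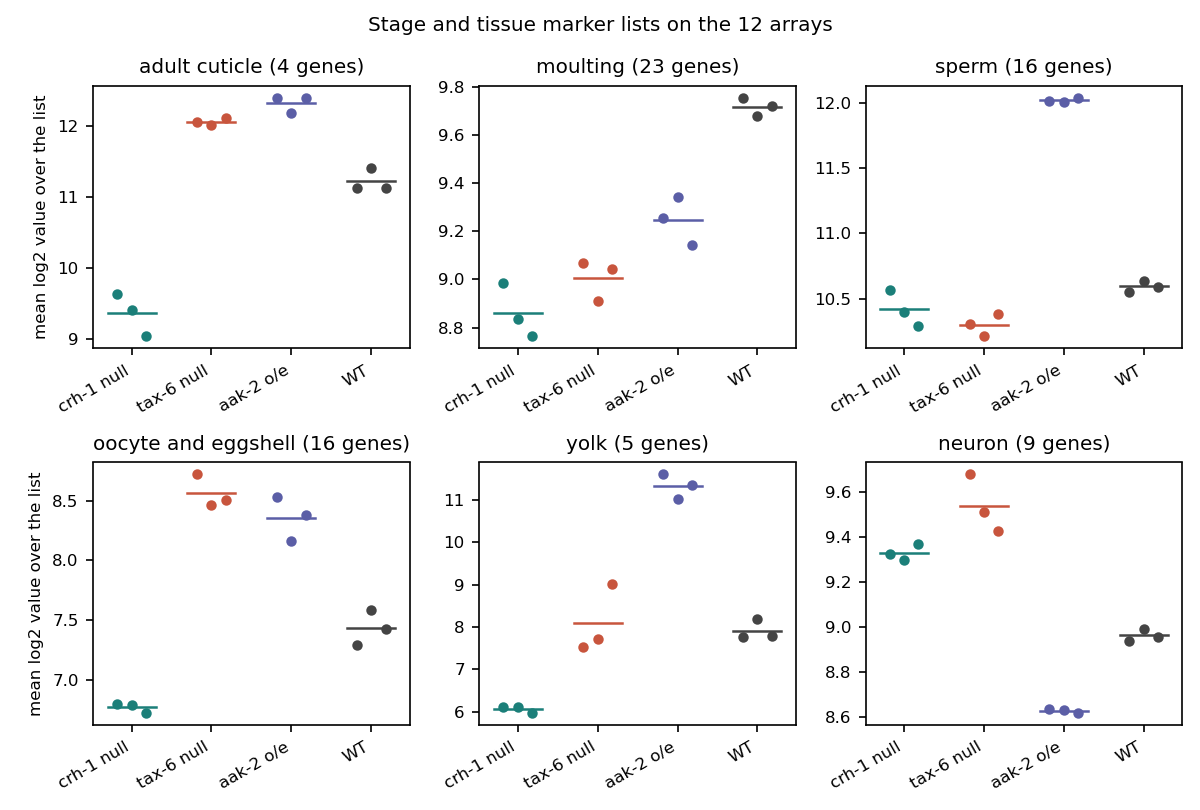
Mean log2 value over the measured genes of 6 marker lists (vertical axis, a separate scale in each panel) on the 12 arrays, with bars for strain means of 3 arrays. The moulting list is lower in all altered strains than in WT, yolk and sperm genes are highest in aak-2 o/e, and the neuronal list is lowest there.

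Genes known to regulate the heterochronic genes were examined next. Of 14 listed, 12 were measured, since nhr-85 and nhr-25 were too dim. In crh-1 null 3 rose and 0 fell, in tax-6 null 5 rose and 1 fell, and in aak-2 o/e 0 rose and 3 fell. Of all probe sets tested, 19.8%, 43.8% and 31.9% were called in these strains. The median difference of the 12 regulators was 0.21, 0.30 and -0.33, beside -0.01, -0.09 and -0.14 over all probe sets. The rises in tax-6 null came to 3 without WT replicate 3 or tax-6 null replicate 2 and with the replicate block. The fall there came to 0 with that block and without WT replicate 1 or 3 or tax-6 null replicate 2. nhr-23, a nuclear receptor that drives moulting, rose by 1.31 ± 0.13 in crh-1 null (adjusted p = 1.19e-05). It read 8.28, 8.49 and 8.64 in tax-6 null, 9.35, 9.41 and 9.41 in crh-1 null, 7.73, 7.75 and 7.43 in aak-2 o/e and 8.19, 7.91 and 8.14 in WT. All crh-1 null arrays stood above all others, whereas the calls in tax-6 null (0.39 ± 0.13, adjusted p = 0.0295) and aak-2 o/e (-0.45 ± 0.13, adjusted p = 0.0208) were lost without several single arrays. These were WT replicates 2 and 3 and tax-6 null replicates 2 and 3 in tax-6 null, and WT replicates 1 and 3 and aak-2 o/e replicate 3 in aak-2 o/e (adjusted p = 0.0505 to 0.118). The call in tax-6 null was also lost with the replicate block (adjusted p = 0.0558) and with only the 2 strains in the fit (0.0674).

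The membrane-bound transcription factors myrf-1 and myrf-2, which act in larval timing upstream of lin-4, were lower in aak-2 o/e. myrf-1 fell by 0.79 ± 0.11 (adjusted p = 0.000154) and myrf-2 by 0.94 ± 0.12 (adjusted p = 8.77e-05). myrf-1 rose by 0.43 ± 0.11 in crh-1 null (adjusted p = 0.0129, lost without crh-1 null replicate 3 or WT replicate 2), and myrf-2 rose by 0.58 ± 0.12 in tax-6 null (adjusted p = 0.00205). pan-1, a leucine-rich repeat protein gene, rose in crh-1 null (0.65 ± 0.15, adjusted p = 0.00988) and tax-6 null (0.61 ± 0.15, adjusted p = 0.00715). The nuclear receptor gene daf-12, which controls let-7 family transcription, rose in tax-6 null (0.67 ± 0.17, adjusted p = 0.00703). Its difference was 0.30 ± 0.17 in crh-1 null (adjusted p = 0.281) and -0.43 ± 0.17 in aak-2 o/e (adjusted p = 0.0716). puf-9, a Pumilio-family RNA-binding protein gene, rose in tax-6 null (0.37 ± 0.14, adjusted p = 0.0478), and 14 alternatives lost the call, among them the replicate block and leaving out tax-6 null replicate 1 or 2 or any WT replicate (adjusted p up to 0.162). The zinc-finger gene blmp-1 fell in tax-6 null (-0.37 ± 0.12, adjusted p = 0.03), and the call was lost under 7 alternatives, the replicate block (adjusted p = 0.0565) and leaving out WT replicate 1 or 3 or tax-6 null replicate 1 or 2 among them (adjusted p up to 0.106). The casein kinase gene kin-20, whose product acts with LIN-42, passed in no strain, at -0.15 ± 0.11 in tax-6 null, -0.22 ± 0.11 in crh-1 null and -0.31 ± 0.11 in aak-2 o/e. The count of falls in aak-2 o/e depended on which arrays set the spread. It was 2 without WT replicate 1 or aak-2 o/e replicate 3, 5 without aak-2 o/e replicate 1 or with only the 2 strains in the fit, 7 without tax-6 null replicate 1 and 8 with array weights.

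**Figure D5:**
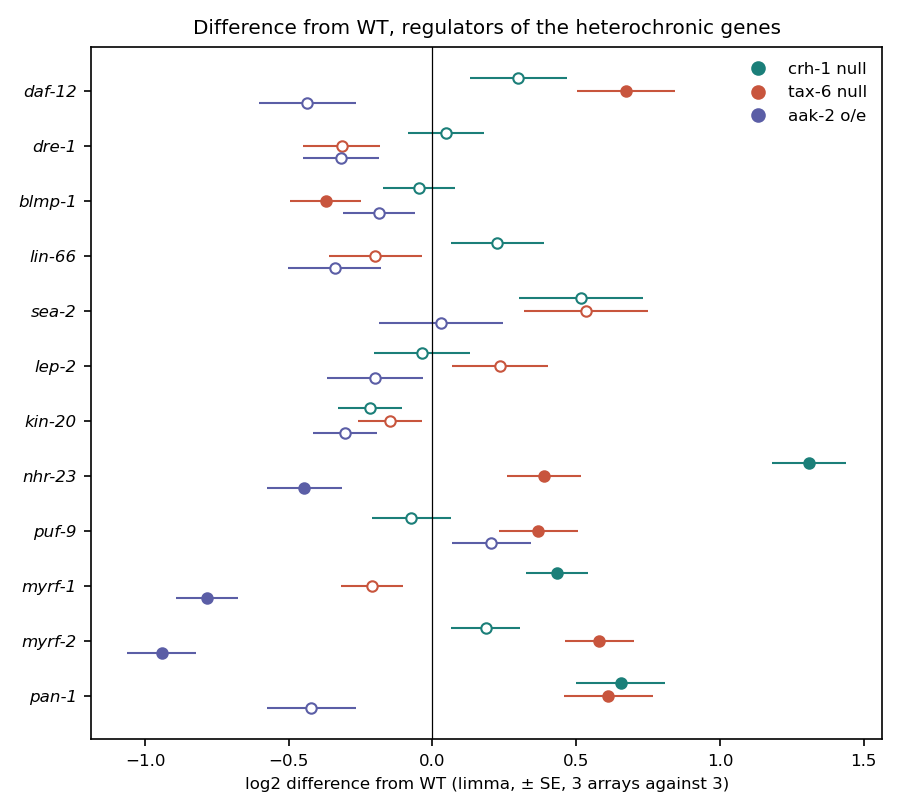
Log2 difference from WT (horizontal axis) of the 12 measured regulators of heterochronic genes, 3 arrays against 3, with bars for ± SE from limma. Filled points passed an adjusted p of 0.05 and open points did not; nhr-23 in crh-1 null is farthest right at 1.31, and myrf-1 and myrf-2 in aak-2 o/e are farthest left.

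Mature microRNAs were not measured, so lin-4 and the let-7 family could be approached only through the proteins that make and use small RNAs. Of 10 such genes, all measured, 1 rose and 0 fell in crh-1 null, 1 rose and 1 fell in tax-6 null, and none was called in aak-2 o/e (limma, with 1 at an unadjusted p under 0.05). Of all probe sets tested, 19.8%, 43.8% and 31.9% were called in these strains. The Argonaute cofactor gene ain-1 rose in crh-1 null (0.74 ± 0.21, adjusted p = 0.0294), its relative ain-2 rose in tax-6 null (0.43 ± 0.16, adjusted p = 0.0445) and the exonuclease gene xrn-2 fell there (-0.34 ± 0.11, adjusted p = 0.0231). Each of these 3 calls was lost without some single arrays (adjusted p up to 0.177). The Argonaute gene alg-1 read 8.52, 9.43 and 9.43 in tax-6 null, 9.37, 9.10 and 9.41 in crh-1 null, 9.10, 9.08 and 8.94 in aak-2 o/e and 8.84, 8.58 and 8.72 in WT. Every array of the altered strains lay above WT except tax-6 null replicate 1, which lay below it. alg-1 did not pass with all arrays (adjusted p = 0.137 in tax-6 null, 0.08 in crh-1 null and 0.265 in aak-2 o/e) and passed in all of them without that array (adjusted p = 0.000731, 0.00246 and 0.0359).

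The altered strains were also compared with each other. In crh-1 null against aak-2 o/e 3 were called, all higher in crh-1 null (hbl-1, lin-46 and lin-29), where 44.3% of probe sets were called (26.1% higher and 18.1% lower). In tax-6 null against aak-2 o/e 4 were called, all higher in tax-6 null (lin-28, hbl-1, lin-46 and lin-41), where 48.1% were called (26.1% higher and 22% lower). lin-46 passed the filter only through crh-1 null and tax-6 null, so its calls against aak-2 o/e are a description. The other calls against aak-2 o/e were hbl-1 and lin-29 in crh-1 null, and lin-28, hbl-1 and lin-41 in tax-6 null. In crh-1 null against tax-6 null 3 were called, lin-29 as higher and lin-28 and lin-41 as lower in crh-1 null, where 36.7% were called (21.1% higher and 15.6% lower). Arrays did not overlap for 3, 3 and 4 of the 6 in these comparisons, where 57.8%, 54.3% and 48.6% of all probe sets did not. The median difference of the 6 was 0.29, 0.50 and -0.16 in these comparisons, beside 0.14, 0.04 and 0.09 over all probe sets. These counts and medians include lin-46.

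Genes whose profile over the 12 arrays was most like that of lin-29 were K10D3.4 (Pearson r = 0.937), atf-2 (0.928) and ctsa-3.1 (0.923), and picc-1 ran most opposite to it (-0.94). lin-29 was the only member with strain means spanning at least 1 on the log2 scale by values that reached 4. These values describe 12 arrays that share 4 strain means, and they were the extremes among all genes tested.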

How the data were processed

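The authors deposited log2 values for 22625 probe sets on 12 Affymetrix arrays. GCRMA and GCOS 1.4 made them, per the submitters' processing notes. The GCRMA version, build and harvest times are not stated there. GCRMA corrects background, normalizes between arrays and summarises probe sets. Values have a floor, with 29.8% of them within 0.1 of the lowest, which compresses differences of dim probe sets. No pair of arrays held identical values.

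Gene names came from the platform annotation, with symbols updated by gene ID from the WBcel235 gene table (20701 of 20766 single-symbol probe sets matched). Of the rest, 887 had several symbols, 895 none and 77 were controls. No coordinates or sequences are given. Those marked _s or _x may cross-match related transcripts.

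limma 3.58.1 in R 4.3.3 fitted 1 mean per strain over all 12 arrays (lmFit, eBayes, two-sided, 8 residual and 3.63 prior degrees of freedom), and p-values were adjusted (Benjamini-Hochberg) over 13396 probe sets. p-values measure the spread between pools, said to be prepared on separate days. Other genes are represented by their brightest probe set. The marker lists were small RNA machinery, heterochronic regulators, adult cuticle, seam, epidermis, moulting, sperm, oocyte and eggshell, yolk, germline, neuron, muscle and intestine. All single-symbol member probe sets are named, and of each list the genes with the smallest adjusted p, with col-19, nhr-23, daf-12, blmp-1, alg-1 and kin-20 always, and, chosen after their values were seen, fbn-1 and any other gene outside that rule. Likeness was the highest and lowest Pearson correlation, for members spanning at least 1 between strain means. lin-46 met this through values below 4 and is left out. Members and lists were chosen with earlier results of these data known. The procedure was tested on simulated data. Same-numbered replicates were checked for pairing by correlating their deviations from strain means. Alternatives were quantile normalization, median centring, no filter, a filter of 5, array weights, a mean-dependent prior, only the 2 strains compared, a replicate block, 1 probe set per gene and leaving out each array. The list counts were added to these after seeing the data.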

Additional observations from a re-analysis of the deposited data

How the results depend on the processing

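Of 36 differences of tested members, 21 were called. These include differences of lin-46, which passed the filter only through crh-1 null and tax-6 null. No called difference changed sign under any alternative that could test it, 12 kept their call under all of them and 9 lost it under at least one. Of the 15 not called, 3 passed under at least one. With the filter at 5, lin-41 and lin-46 could not be tested. The count of members called in tax-6 null against aak-2 o/e was then 2, and also 2 with only the 2 strains in the fit, beside 4. Leaving out single arrays gave 1 to 3 members called in aak-2 o/e against WT (1 without WT replicate 3 or aak-2 o/e replicate 2 or 3), 2 to 3 in crh-1 null against WT and 4 to 6 in tax-6 null against WT. The replicate number as a block gave 6, 3 and 2 members called in tax-6 null, crh-1 null and aak-2 o/e against WT, as without it. Same-numbered replicates correlated at -0.25 to 0.14, with 1 of 18 pairs over 0.1, and 0 of 12 arrays correlated best with their own number. With 3 replicates per strain this check cannot exclude a shared day, and the main fit took no pairing. Values below 4 carry no reliable size.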

Other observations

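Seam cells, the epidermal stem-like cells in which most of these genes act, were read through a list of which 5 of 10 genes were measured. In crh-1 null 3 rose and 0 fell, in tax-6 null 2 rose and 1 fell, and in aak-2 o/e 1 rose and 1 fell. Of all probe sets tested, 19.8%, 43.8% and 31.9% were called in these strains. Among the rises in crh-1 null, rnt-1 passed the filter only through that strain, at a mean of 4.63 beside 3.64 in WT. A gene chosen in this way had to differ, so its call is a description. Each of the falls came to 0 without some single arrays, which were WT replicate 3 or tax-6 null replicate 2 in tax-6 null and WT replicate 1 or 3 or aak-2 o/e replicate 3 in aak-2 o/e. The hedgehog-related gene grd-10 differed from WT by 2.22 ± 0.18 in tax-6 null, 2.64 ± 0.18 in crh-1 null and -0.61 ± 0.18 in aak-2 o/e (adjusted p = 1.78e-06, 6.03e-07 and 0.0222). The GATA factor gene elt-6 rose by 1.19 ± 0.13 in crh-1 null and 0.57 ± 0.13 in tax-6 null, and another GATA factor gene, elt-1, rose by 0.93 ± 0.11 in aak-2 o/e.

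Lists of other tissues gave the following counts. Over all probe sets tested, 9.53% rose and 10.2% fell in crh-1 null and 17.9% rose and 25.9% fell in tax-6 null. In aak-2 o/e 13.6% rose and 18.3% fell. Of 9 epidermal genes, 5 fell and 1 rose in crh-1 null, 4 fell and 1 rose in tax-6 null and 4 fell in aak-2 o/e. The epidermal falls came to 3 in crh-1 null without its replicate 2 or 3 or WT replicate 3, to 2 in tax-6 null without WT replicate 3 or tax-6 null replicate 2, and to 2 in aak-2 o/e without aak-2 o/e replicate 1. The epidermal rise in crh-1 null came to 0 on leaving out replicate 2 or 3 of either strain. Of 8 muscle genes, 0 were called in crh-1 null (limma, with 1 at an unadjusted p under 0.05), 3 fell in tax-6 null and 2 fell in aak-2 o/e. The muscle falls in aak-2 o/e came to 0 or 1 on leaving out any single array other than tax-6 null replicate 1. The muscle list holds unc-54 and the epidermal list rol-6, both named in the description of the aak-2 o/e transgene. Whether transgene RNA adds to their values was not tested. Of 8 intestinal genes, 1 rose and 1 fell in crh-1 null, 1 rose and 3 fell in tax-6 null and 2 fell in aak-2 o/e. The intestinal fall in crh-1 null came to 0 on leaving out any single replicate of crh-1 null or WT, aak-2 o/e replicate 2 or 3, or tax-6 null replicate 3. The falls in aak-2 o/e came to 1 on leaving out any single WT replicate or aak-2 o/e replicate 1. Of 10 germline genes, 1 fell in crh-1 null, 2 fell in tax-6 null, and 2 rose and 2 fell in aak-2 o/e. The germline rises in aak-2 o/e came to 0 or 1 on leaving out any single WT replicate or aak-2 o/e replicate 1 or 2, and the falls to 0 or 1 on leaving out any single replicate of either. The falls in tax-6 null came to 1 on leaving out any single array other than tax-6 null replicates 2 and 3.

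One further probe set carries the symbol lin-29 under 2 gene IDs and was not counted among the members. It read 3.37, 3.37 and 3.15 in tax-6 null, 3.37, 3.40 and 3.74 in crh-1 null, 3.33, 3.37 and 3.37 in aak-2 o/e and 3.62, 3.37 and 3.44 in WT, below 4 on all arrays.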
